A study of Mus musculus with 2 samples.

Results

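The 9 genes described here, *Upf1*, *Upf2*, *Upf3a*, *Upf3b*, *Smg1*, *Smg5*, *Smg6*, *Smg8* and *Smg9*, encode core factors of nonsense-mediated mRNA decay (NMD). They were chosen by gene symbol as a known pathway and not by their values, although earlier results of these data were known. All 9 were found by Ensembl identifier among the 39695 gene entries of the RNA-seq data, and all 9 passed a filter that removed genes with a mean RPKM under 1, as did 14831 entries in all. RPKM is the number of reads on a gene per kilobase of its length and per 1000000 counted reads. There was 1 control library and 1 Bcas2F/-;V-cre library, both from 9-day-old male mice that the labels give as C57BL/6, whereas the methods of the study describe a mixed 129/C57BL/6 line. Both genotypes were F/-, that is, 1 *Bcas2* allele was floxed and the other deleted, and only the Bcas2F/-;V-cre males had the *Vasa-Cre* transgene, whose promoter drives the recombinase in germ cells. *Bcas2* encodes a subunit of the Prp19 splicing complex. RNA was taken from whole testes, so fewer cells of a type and less RNA per cell cannot be told apart in any value below. How many mice contributed to a library is not given in the sources used here.

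NMD removes mRNAs on which translation stops too early, often because splicing has left an intron or a shifted frame behind. UPF1, an RNA helicase, binds the mRNA and is phosphorylated by the kinase SMG1, which SMG8 and SMG9 hold in check. UPF2 and the paralogues UPF3A and UPF3B link UPF1 to the exon junction complex, a mark that splicing leaves on the mRNA. SMG6 cuts the phosphorylated UPF1 target, and SMG5 helps to recruit deadenylation and decapping enzymes. Transcripts of several of these factors are themselves known to be degraded by NMD. In the mouse testis, germ cells and Sertoli cells need UPF2, and UPF3A is known as an abundant testis protein with a weaker or opposing role to UPF3B.

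Counted reads behind the deposited values numbered 19918750 for control and 19331687 for Bcas2F/-;V-cre testes. These sizes were obtained from the steps between RPKM values, which are whole reads. Sequencing was paired-end, and whether a counted read stands for 1 end or both ends of a sequenced piece was not determined. The targeted gene *Bcas2* had 39.5 RPKM in control and 25.7 RPKM in Bcas2F/-;V-cre testes, a change of −35.1%, in the direction of its genotype label. Changes are given as the log2 ratio of RPKM + 1 in Bcas2F/-;V-cre over control testes. The pseudocount of 1 makes the change of genes with low RPKM look smaller. With 1 library per genotype there is no spread between replicates to set a difference against, and no p-values were computed. Intervals are exact binomial (Clopper-Pearson, 95%), taken on how a gene's reads divide between the libraries and converted to a log2 RPKM ratio without the pseudocount, and they cover counting error only. Markers of testis cell types were present in both libraries. The 7 germ cell markers summed to 478 RPKM in control and 366 RPKM in Bcas2F/-;V-cre testes, with 6 of 7 lower. *Stra8* had the lowest ratio (87.2 RPKM and 56.8 RPKM) and *Sohlh2* the highest (17.7 RPKM and 20.5 RPKM). All 4 markers of meiosis prophase I were lower, with sums of 84.1 RPKM and 54.2 RPKM. All 4 tested Sertoli cell markers had a log2 ratio above 0, as did 53.7% of all genes tested. These ratios ran from 0.017 for *Cldn11*, nearly unchanged, to 0.36 for *Amh*. The Sertoli sum went from 537 RPKM to 595 RPKM, although *Rhox5* was listed at 0 in both libraries. The 5 Leydig cell markers summed to 381 RPKM and 425 RPKM, with 3 of 5 higher. The 3 peritubular myoid markers summed to 402 RPKM and 371 RPKM. The 4 red cell markers summed to 782 RPKM and 775 RPKM, a sum carried by *Hbb-bs* (551 RPKM and 596 RPKM), while the other 3 were lower, *Slc4a1* most (15.7 RPKM and 0.607 RPKM). The 4 macrophage and neutrophil markers were all lower, with the largest differences in the neutrophil genes *S100a8* (9.35 RPKM and 0.660 RPKM) and *S100a9* (9.83 RPKM and 0.401 RPKM), whereas the macrophage genes *Adgre1* and *Csf1r* had log2 ratios of −0.19 and −0.23. The 4 spermatid markers summed to only 1.52 RPKM and 1.47 RPKM. By real-time RT-PCR at the same age, the paper found similar mRNA of *Mvh* (*Ddx4*), *Sohlh1*, *Sohlh2*, *c-kit*, *Dazl* and *Stra8* in both genotypes. Its *Dmc1*, *Scp1*, *Scp3* and *Smc1b* mRNA was significantly lower without BCAS2. The part of these marker differences in the values of the NMD factors was not tested.

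Transcripts of the 9 NMD factors were at nearly the same level in both libraries. The number past 1.5-fold in Bcas2F/-;V-cre testes was 0 of 9 in either direction, where 1.69% of the 14831 genes tested were past it downwards and 1.57% upwards. Past 2-fold the number was also 0, against 0.378% of all genes downwards and 0.425% upwards. The log2 ratios of the 9 genes ran from −0.0089 for *Smg8* to 0.24 for *Upf3b*. Their median was 0.073, and that of all genes tested was 0.015. The ratio was above 0 for 8 of the 9, as it was for 53.7% of all genes tested. This count was 7 when the median ratio of all genes was set to 0 and 9 when RPKM was rescaled to a sum of 1000000 per library, so the direction of the smallest ratios depends on the scaling. Added together, the 9 genes had 287 RPKM in control and 306 RPKM in Bcas2F/-;V-cre testes, 6.78% more. Among the 6494 genes whose mean RPKM was between 10 and 60, the range in which the factors lay, the log2 ratios had an SD of 0.186, and 9 of 9 factors lay between the 5th percentile of that class (−0.31) and its 95th percentile (0.26).

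**Figure D1:**
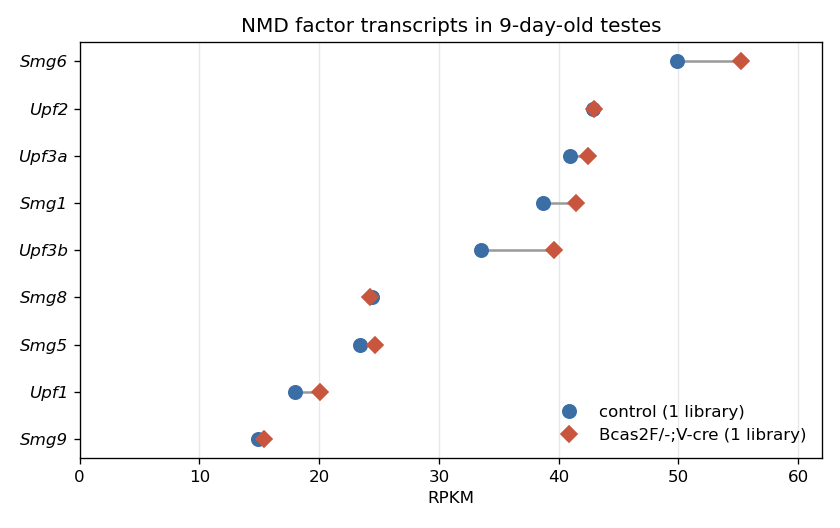
RPKM (x axis) of the 9 NMD factors (y axis, ordered by their control level) in the control library (circles) and the Bcas2F/-;V-cre library (diamonds), 1 library each, with a line joining the 2 values of a gene. The pairs lie close together at every level, from 14.9 and 15.4 RPKM for *Smg9* to 49.9 and 55.2 RPKM for *Smg6*, and the widest gap on the ratio scale is that of *Upf3b*.

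In deposited RPKM the 4 Upf genes were at or above their control level. *Upf1*, the helicase at the centre of the pathway, is encoded on the minus strand of chromosome 8 (GRCm38, 70331525 to 70353278). It had 18.0 RPKM in control and 20.1 RPKM in Bcas2F/-;V-cre testes, from 1657 and 1791 reads. Its log2 ratio was 0.15, 11.4% more on the RPKM scale, with an interval from 0.058 to 0.25. Its partner *Upf2* (chromosome 2, 5951469 to 6056703, plus strand) had 42.9 RPKM in control and 43.0 RPKM in Bcas2F/-;V-cre testes, from 2431 and 2365 reads. These values differ by 0.239%, and the interval of the log2 RPKM ratio ran from −0.079 to 0.086. In deposited RPKM *Upf2* had the smallest difference of the 9, but with RPKM rescaled to 1000000 per library its log2 ratio was 0.031 and that of *Smg8* 0.019.

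*Upf3b*, on the X chromosome (37091678 to 37110322, minus strand), had the highest ratio of the 9 factors. It had 33.5 RPKM in control and 39.6 RPKM in Bcas2F/-;V-cre testes, from 1262 and 1448 reads. The log2 ratio was 0.24, 18.2% more on the RPKM scale, and the interval from 0.13 to 0.35 left out 0. A ratio of this size was not rare, since 6.70% of these 6494 genes had a higher one. Among tested protein-coding genes, 9.85% of 528 on the X chromosome and 7.80% of 12453 on chromosomes 1 to 19 had a higher ratio than *Upf3b*, and the medians were 0.040 and 0.0070. Its autosomal paralogue *Upf3a* (chromosome 8, 13785615 to 13799193, plus strand) had 41.0 RPKM in control and 42.4 RPKM in Bcas2F/-;V-cre testes. The log2 ratio of *Upf3a* was 0.050, with an interval from −0.047 to 0.15. On the RPKM scale *Upf3a* was 1.22 times as abundant as *Upf3b* in control and 1.07 times as abundant in Bcas2F/-;V-cre testes. The log2 ratio of *Upf3a* to *Upf3b* thus differed by −0.19 between the Bcas2F/-;V-cre and control libraries.

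The 100 bases before the annotated start are given for *Upf3b*, which had the highest ratio, for *Upf3a*, and for *Smg5*, which shares a motif with *Upf3b*. They are from RefSeq on GRCm38.p6, read 5′ to 3′ on the strand of the gene, and the capitals mark TCGCGAGA on either strand, a motif known from promoters of widely expressed genes.
Upf3b (chrX:37110323-37110422, minus strand): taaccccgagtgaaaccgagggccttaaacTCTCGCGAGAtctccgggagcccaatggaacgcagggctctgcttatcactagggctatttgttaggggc
Upf3a (chr8:13785515-13785614, plus strand): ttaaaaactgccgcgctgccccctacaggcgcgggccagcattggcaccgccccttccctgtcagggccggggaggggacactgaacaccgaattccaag
Smg5 (chr3:88336160-88336259, plus strand): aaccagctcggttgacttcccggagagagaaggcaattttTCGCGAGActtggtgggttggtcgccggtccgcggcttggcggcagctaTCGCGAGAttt
The *Upf3b* stretch holds the motif on both strands in overlapping copies that span bases −70 to −61 before the start, and the *Smg5* stretch holds it at −60 to −53 and at −11 to −4. No copy stands in the *Upf3a* stretch. Within 250 bases before the start and on both strands, TCGCGAGA occurs in 0.858% of 32851 RefSeq promoters. GGGCGG was found in 7 of the 9 factors and in 32.7% of all promoters, CCAAT in 4 of 9 and in 33.8%, and TATAAA in 0 of 9 and in 12.4%. All 9 windows were rich in CpG, with an observed over expected ratio from 0.790 for *Smg1* to 1.24 for *Upf1*, against a median of 0.373 over all promoters. Of all promoters, 19.8% were at or above the ratio of *Smg1*. The part of CpG content in the GGGCGG count was not tested. These matches describe the letters only and say nothing of binding.

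**Figure D2:**
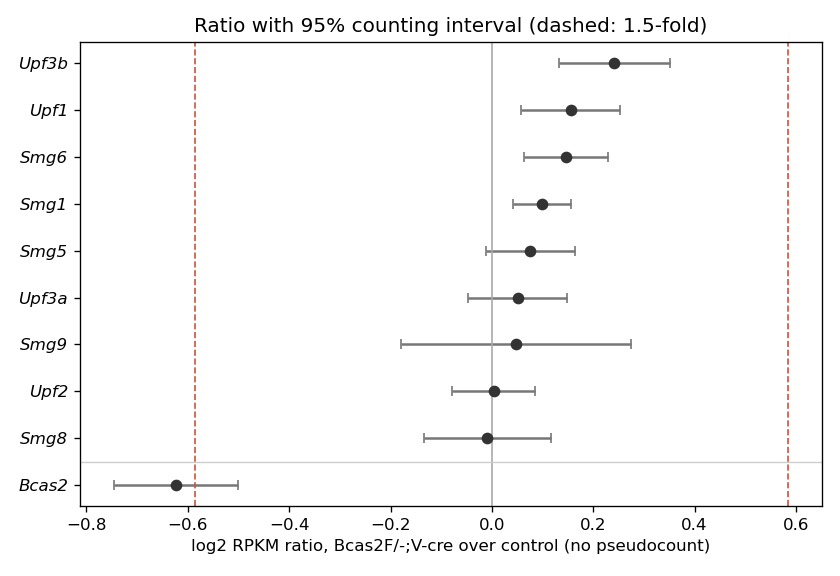
Log2 RPKM ratio of Bcas2F/-;V-cre over control without a pseudocount (x axis) for the 9 NMD factors, and below the line for the targeted gene *Bcas2*. Bars are 95% counting intervals from 1 library per genotype, and the dashed lines mark 1.5-fold. All 9 intervals lie inside the dashed lines, and those of *Upf3b*, *Upf1*, *Smg6* and *Smg1* leave out 0.

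Transcripts of the 3 SMG1 kinase complex genes were close to their control levels. *Smg1*, the kinase gene (chromosome 7, 118131308 to 118243670, minus strand), had 38.7 RPKM in control and 41.5 RPKM in Bcas2F/-;V-cre testes, a log2 ratio of 0.097, from 4846 and 5040 reads. The interval ran from 0.043 to 0.16. *Smg8* (chromosome 11, 87077732 to 87086774, minus strand) had 24.4 RPKM and 24.2 RPKM, from 1065 and 1027 reads. Its interval ran from −0.13 to 0.12, and in deposited RPKM it was the only factor of the 9 with a lower value in the Bcas2F/-;V-cre library, a change of −0.64%. *Smg9* (chromosome 7, 24399619 to 24422778, plus strand) had 14.9 RPKM and 15.4 RPKM, from 322 and 323 reads. With the fewest reads of the 9 it had the widest interval, from −0.18 to 0.28 around a log2 ratio of 0.045, so a difference of up to that size was not detectable at this depth.

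Transcripts of the 2 effectors that act after UPF1 phosphorylation both had slightly higher RPKM in the Bcas2F/-;V-cre library. *Smg6*, the endonuclease gene, (chromosome 11, 74925823 to 75164448, plus strand), had the highest RPKM of the 9, with 49.9 RPKM in control and 55.2 RPKM in Bcas2F/-;V-cre testes. From 2312 and 2483 reads, its log2 ratio was 0.14 with an interval from 0.064 to 0.23. *Smg5* (chromosome 3, 88336260 to 88362338, plus strand) had 23.4 RPKM and 24.7 RPKM from 2073 and 2121 reads. Its log2 ratio of 0.073 was the median of the 9 factors, and its interval from −0.012 to 0.16 held 0. Of the 9 intervals, 4 left out 0 and 5 held it. An interval that leaves out 0 says that the libraries differ by more than counting error, not that the genotypes differ.

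**Figure D3:**
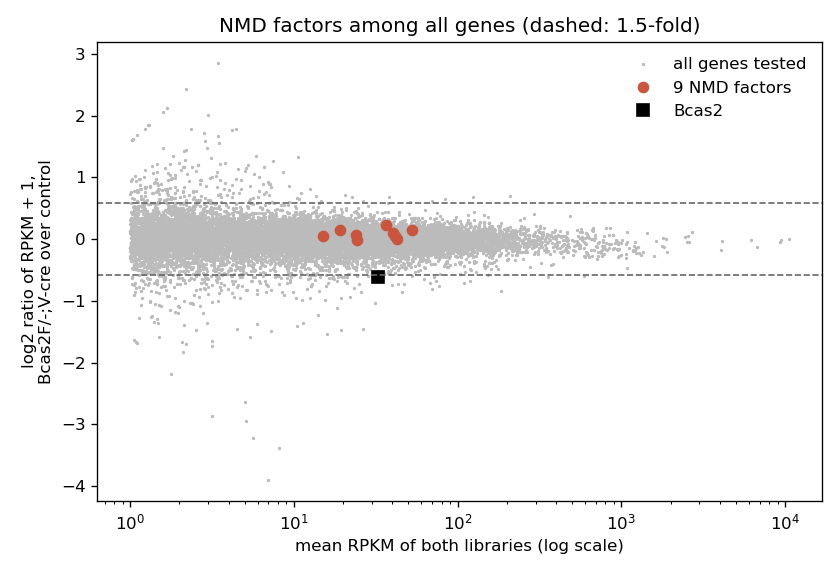
Log2 ratio of RPKM + 1 in Bcas2F/-;V-cre over control (y axis) against mean RPKM of both libraries on a log scale (x axis) for the 14831 genes tested (grey), the 9 NMD factors (red circles) and *Bcas2* (black square). Dashed lines mark 1.5-fold. The factors lie in the dense middle of the plot, all between −0.0089 and 0.24, and *Bcas2* lies just below the lower line.

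The order in which the factors stood depended on the length taken for each gene. By RPKM the order in control was *Smg6*, *Upf2*, *Upf3a*, *Smg1*, *Upf3b*, *Smg8*, *Smg5*, *Upf1* and *Smg9*. In Bcas2F/-;V-cre testes the order was the same except that the neighbours *Smg5* and *Smg8* changed places. *Upf2*, *Upf3a* and *Smg1* lay between 38.7 RPKM and 42.9 RPKM in control and between 41.5 RPKM and 43.0 RPKM in Bcas2F/-;V-cre testes, and no spread between animals is known against which these neighbours could be told apart. The lengths behind the RPKM values could be read from the whole reads. For 5 of the 9 factors (*Upf2*, *Upf3b*, *Smg6*, *Smg8* and *Smg9*) the length was within 1 base of the mean over all transcripts annotated in GENCODE M21, short fragments included. *Smg6* was thus divided by 2327 bases, whereas its longest coding transcript has 5848, and *Upf1* by 4616 bases, against 4618 for its longest. With the longest coding transcript as the length, a choice made after seeing the data, *Smg6* came to 19.8 RPKM, *Upf1* to 18.0 RPKM, *Smg5* to 23.4 RPKM, *Upf2* to 23.6 RPKM, *Upf3b* to 27.0 RPKM, *Smg8* to 16.6 RPKM, *Smg1* to 15.6 RPKM and *Smg9* to 7.21 RPKM in control. *Smg6* then stood below *Smg5*, at 0.848 times its level, where by deposited RPKM it stood at 2.13 times. The highest and lowest of the 9 factors were 3.34-fold apart by deposited RPKM and 5.81-fold apart with the longest transcript, where *Upf3a* stood highest at 41.9 RPKM and *Smg9* lowest. The ratio of *Upf3a* to *Upf3b* is the least certain, because the length of *Upf3a* could be 701 bases or any multiple of it. With 2103 bases, the multiple nearest to its mean transcript length of 2295, it has 1716 and 1725 reads and, with the longest coding transcript as length, stands at 1.55 times *Upf3b* in control. *Upf3b* is taken with 1892 bases in both ratios, which is 2 times its own smallest whole length of 946 bases. With 701 bases *Upf3a* has 572 and 575 reads and on the same scale stands at 0.516 times, so which paralogue is more abundant is not settled by these values. The read numbers of *Upf1*, *Smg1* and *Smg5* are likewise the smallest that give a whole length. Ratios between the libraries without a pseudocount do not depend on the length, although their intervals do.

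**Figure D4:**
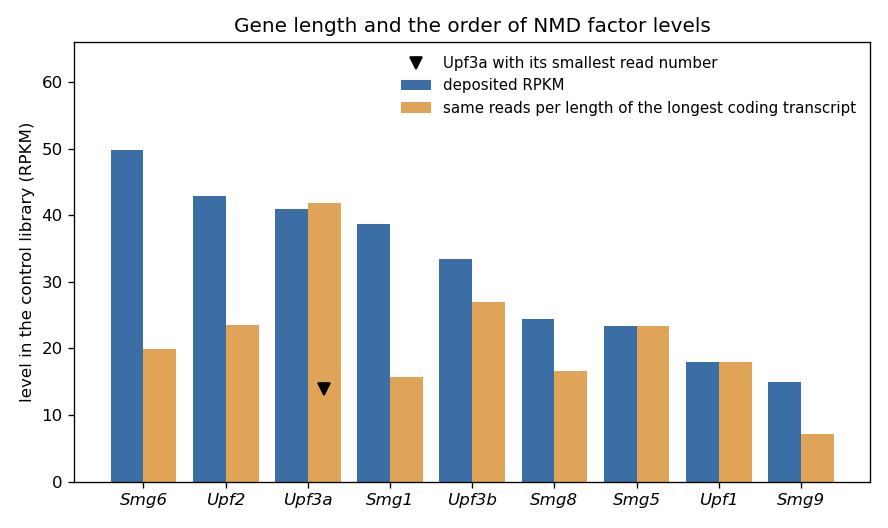
Level in the control library in RPKM (y axis, from 0) for the 9 NMD factors as deposited (blue bars) and with the same reads divided by the length of the longest coding transcript in GENCODE M21 (orange bars), and for *Upf3a* with its smallest read number (triangle). *Smg6* drops from 49.9 RPKM to 19.8 RPKM, while *Upf1* and *Smg5* stay at 18.0 RPKM and 23.4 RPKM.

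Values are given per gene, so each mixes coding transcripts with others. The 9 factors have 45 annotated transcripts, of which 18 are coding, 17 are retained-intron transcripts in 5 of the genes and 3 are NMD substrates by annotation, 1 each in *Smg1*, *Smg5* and *Smg6*. Gene-level RPKM cannot separate these forms. Exons of *Upf1* share 68 bases with *Cers1* and 63 with *Gdf1*, and exons of *Smg6* share 126 bases with *Srr* and 117 with an antisense transcript, all on the opposite strand. The library kit is not stated to keep the strand, so reads on these bases cannot be assigned, but they are a small share of the 4618 and 8453 exonic bases of *Upf1* and *Smg6*.

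The genes around the core factors were examined as 7 lists with 49 members in all, of which 48 were matched and 47 passed the filter. Among the 47, 1 was more than 1.5-fold lower (background 1.69%) and 0 were more than 1.5-fold higher (background 1.57%), and their median log2 ratio was −0.046. Of the 10 NMD-associated proteins none was past 1.5-fold. Their median was −0.016, with the endoplasmic reticulum NMD factor *Nbas* lowest at −0.25 and *Secisbp2*, a selenoprotein translation factor, highest at 0.23. The 6 exon junction complex genes had a median of −0.11, with 5 of 6 below 0. Core subunit *Rbm8a* was lowest at −0.23, with 53.0 RPKM and 45.0 RPKM, and *Magohb* was highest at 0.19. The 4 translation termination genes ran from −0.18 for the poly(A)-binding protein gene *Pabpc1* to 0.11 for the release factor gene *Etf1*, with a median of 0.0048. The 9 decay enzyme genes had a median of 0.072, from −0.089 for the deadenylation scaffold *Cnot1* to 0.18 for the decapping activator *Dcp1a*.

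Larger differences stood at some, but not most, of the genes that share UPF1 or its helicase fold with other pathways. *Mov10l1*, the piRNA helicase of male germ cells, was the 1 gene past 1.5-fold, with 64.0 RPKM in control and 41.9 RPKM in Bcas2F/-;V-cre testes and a log2 ratio of −0.60. It was no longer past that fold when RPKM was rescaled to 1000000 per library. The 7 germ cell markers had a median of −0.38, with 6 of 7 below 0, and the part of germ cell content in the value of *Mov10l1* was not tested. The log2 ratios of the other 5 UPF1-like helicase genes ran from −0.11 for *Aqr* to 0.12 for *Znfx1*. Of 4 tested UPF1 partners in other decay pathways, 3 were below 0. *Slbp*, which binds histone mRNA ends, had 165 RPKM and 129 RPKM, a log2 ratio of −0.35. *Zc3h12a*, the gene for the RNase regnase 1, had 2.06 RPKM and 1.12 RPKM, a log2 ratio of −0.53. It was past 1.5-fold with pseudocounts of 0.1 and 0.01 and with RPKM rescaled to 1000000 per library. *Stau1* was highest at 0.0071. *Tdrd6*, a later germ granule gene, did not pass the filter.

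Known NMD substrates did not share a direction. Of 10 transcripts, 9 were matched, of which 4 had a log2 ratio above 0 and 5 below 0, with a median of −0.11. The highest was *Gas5*, a non-coding snoRNA host transcript, with 107 RPKM in control and 144 RPKM in Bcas2F/-;V-cre testes, a log2 ratio of 0.43 that did not reach 1.5-fold. From 1573 and 2067 reads, its interval ran from 0.34 to 0.53. Those reads take its length as 741 bases, within 1 base of its mean transcript length. With its smallest read pair, 121 and 159 reads, the interval ran from 0.087 to 0.79 and so held the 1.5-fold line. *Snhg12* and *Zfas1*, also snoRNA hosts, had log2 ratios of 0.16 and 0.0023. The lowest was the immediate-early gene *Arc*, with 3.04 RPKM and 2.08 RPKM and a log2 ratio of −0.39. The stress genes *Gadd45a* and *Gadd45b* were at −0.33 and −0.36, *Ddit3* at −0.12 and *Atf4* at 0.12. The 9 factors lay in a narrower range, from −0.0089 to 0.24, than these 9 transcripts, from −0.39 to 0.43, a difference that was not tested.

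**Figure D5:**
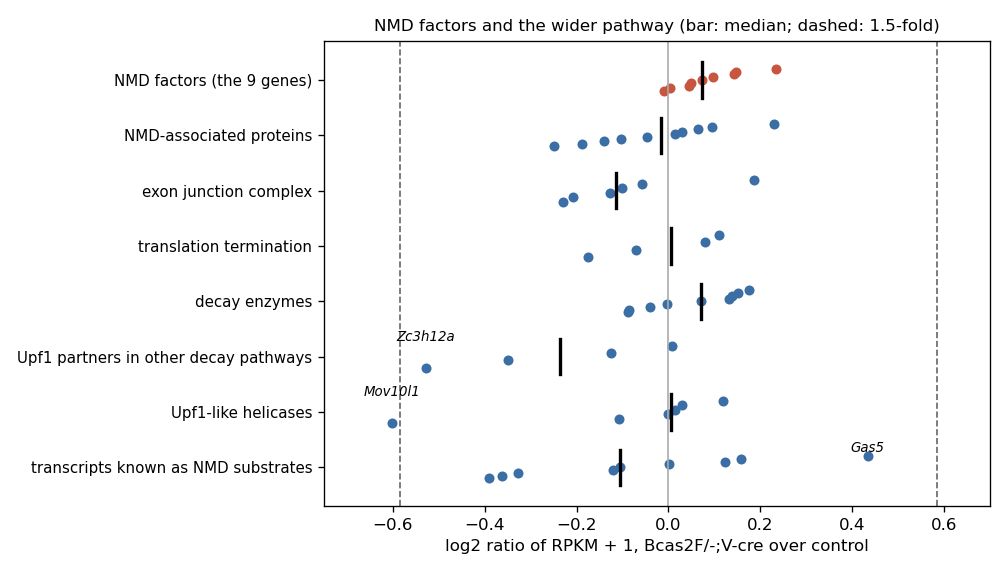
Log2 ratio of RPKM + 1 in Bcas2F/-;V-cre over control (x axis) for the 9 NMD factors (red) and the genes of 7 lists from the wider pathway (blue) that passed the filter, 1 point per gene, with black bars at the list medians and dashed lines at 1.5-fold. The factors lie between −0.0089 and 0.24, and *Mov10l1* at −0.60 is the 1 point past a dashed line.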

How the data were processed

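RNA-seq libraries were from whole testes of 9-day-old mice, 1 control and 1 Bcas2F/-;V-cre. Per the methods of the study and the labels' processing notes, the authors aligned clean paired-end reads to mm10 with TopHat2 2.0.9 and used HTSeq for counting. The deposited values are RPKM, zeros included. The annotation release and gene lengths are not given in the sources used here.

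Of the 39695 entries, 37606 (94.7%) matched GENCODE M21 on GRCm38 by identifier. Log2 ratios used RPKM + 1, the deposited scaling and a mean RPKM of at least 1. The folds of 1.5 and 2 follow the methods of the study, and its count test was not run, since 1 library per genotype allows no test of genotype. Library sizes came from 1365 genes with a single annotated transcript and more than 5 control reads, of which 737 gave the same size within 2 reads. A gene's reads are the smallest pair that matches both values within a relative tolerance of 1.2e-09 and gives a whole length, times the whole factor that brings this length nearest to the mean transcript length. The code was also run on simulated reads, which cannot show what lengths the authors used. The lengths of *Upf1*, *Upf3a*, *Smg1* and *Smg5* were not within 1 base of the mean transcript length. The read numbers and intervals of these 4 factors therefore stay uncertain. Intervals cover counting error only.

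The members and lists were chosen with earlier results of these data known. All 9 factors, *Bcas2* and, in each of the 7 pathway lists, genes past 1.5-fold or else the lowest and highest were named. The rule also names 1 gene by its symbol, whatever its values, which is not reported here and enters only the counts and medians of its list. *Slbp*, *Aqr*, the marker genes and the substrates beyond that rule were named after their values were seen, as were the promoter motifs and stretches. Alternatives were pseudocounts of 0.1 and 0.01, a median of 0, a sum of 1000000, no filter or a minimum of 5 and, added after seeing the data, no pseudocount and the longest coding transcript as length. Scripts ran in Python 3.11.15 with pandas 2.3.3, scipy 1.17.1 and numpy 2.4.6, and plots were made in matplotlib 3.10.9. Promoter sequences are from RefSeq (GRCm38.p6).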

Additional observations from a re-analysis of the deposited data

How the results depend on the processing

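No NMD factor was past 1.5-fold in either direction under any of the pseudocounts, scalings and filters tried, and no log2 ratio of the 9 factors moved outside its counting interval. Their median ran from 0.058 with log2 ratios centred on the median gene to 0.10 with RPKM rescaled to 1000000 per library. *Zc3h12a* was past 1.5-fold with pseudocounts of 0.1 and 0.01 and with the rescaling (1 of the UPF1 partners lower in each), and *Mov10l1* was not with the rescaling (0 helicase genes lower). The share of all genes more than 1.5-fold lower was 3.08% and 3.27% with pseudocounts of 0.1 and 0.01. It was 2.21% with the rescaling and 0.975% with a minimum mean RPKM of 5. The share more than 1.5-fold higher was 3.06% and 3.31% with those pseudocounts, 2.69% with the rescaling and 0.431% with that minimum. The cause of these moves was not tested. With the longest coding transcript as length, *Smg6* stood at 0.848 times *Smg5* in control, by the construction of that alternative, and *Upf3a* at 1.55 times *Upf3b*, or 0.516 times with its smallest read number. No paired analysis was possible because each genotype had 1 library. Depth limits *Smg9* most, with 322 and 323 reads.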

Other observations

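The annotation marks many genes as able to yield NMD substrates, and these classes were compared after the data had been seen. Of the protein-coding genes tested, 3657 had at least 1 transcript annotated as an NMD substrate, and their median log2 ratio was 0.014, against 0.0055 for 9347 genes without one. In Bcas2F/-;V-cre testes 0.574% of the first were past 1.5-fold downwards and 0.0547% upwards, and 1.49% and 0.524% of the second. Genes with such a transcript had a higher median of mean RPKM (21.005 against 15.78), and its part in these shares was not tested. The 7525 genes with a retained-intron transcript had a median log2 ratio of 0.010 and the 5479 without one a median of 0.0045.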
